A study of Mus musculus with 6 samples.

Results

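The genes of the caveolae coat were examined in cells of a mouse brown adipocyte line, with and without MICT1, after a differentiation protocol. They were chosen by name as the caveolins Cav1 and Cav2, the cavins Cavin1, Cavin2 and Cavin3, and the membrane-shaping proteins Ehd2, Pacsin2 and Pacsin3. All 8 were among the 13283 genes listed by symbol in the deposited table, and all 8 passed the filter on low values that 12507 genes passed. RNA-seq was performed in an immortalized mouse brown preadipocyte (BAT) line that stably expresses Cas9. MICT1 KO cells were pools made with sgRNAs against MICT1 (genotype MICT1-CRISPR KO in the labels), and control cells received a scrambled sgRNA (Scr, genotype WT). Both groups held 3 libraries, were differentiated with the same adipogenic cocktail, and received 10 µM forskolin, an activator of adenylyl cyclase, for 6 h on day 6. The study made MICT1 KO pools with more than a single sgRNA, and the labels do not tell which pool gave which library. All 6 libraries were thus from forskolin-treated cells of a single line.

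Caveolae are small flask-shaped pits of the plasma membrane, and adipocytes carry more of them than most cells. Caveolin-1 is an integral membrane protein that oligomerizes with caveolin-2 and binds cholesterol. Cavin-1 joins the caveolins from the cytosol to form the coat, and cavin-2 and cavin-3 assemble with it. EHD2 is an ATPase that forms rings at the neck and holds caveolae at the surface, and pacsin-2 and pacsin-3 are F-BAR proteins that bend the membrane. Loss of caveolin-1 or cavin-1 causes lipodystrophy in mice and humans, and fat cells take up fatty acids and respond to insulin in part through caveolae.

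By GENCODE on GRCm38, Cav2 (chromosome 6, 17281185 to 17289115) and Cav1 (chromosome 6, 17306335 to 17341452) lie next to each other on the plus strand, 17.2 kb apart. Cavin1 lies on the minus strand of chromosome 11 (100956733 to 100970887), Cavin2 on the plus strand of chromosome 1 (51289126 to 51302960) and Cavin3 on the minus strand of chromosome 7 (105480083 to 105482300). Ehd2 (chromosome 7, 15946958 to 15967567) and Pacsin2 (chromosome 15, 83375607 to 83464606) lie on the minus strand, and Pacsin3 (chromosome 2, 91255954 to 91264679) on the plus strand. The values count reads of whole genes and do not separate exons, introns or transcripts. Genes on the opposite strand are annotated across Cav1 and Cav2 (Gm15581), Cavin2 (9330175M20Rik), Cavin3 (Gm45667) and Pacsin3 (Gm17281), and a pseudogene (Gm5417) lies on the strand of Pacsin2. The methods describe a strand-specific kit, whereas the labels name only the sequencing provider. Whether strand was used in counting is not given in the sources used here, so reads of these overlapping genes cannot be told apart from those of the coat genes.

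The 250 bases before the RefSeq start (GRCm38.p6) are shown 5′ to 3′ for the 3 genes with the largest falls among the coat genes. They are chr6:17306085-17306334 for Cav1, chr6:17280935-17281184 for Cav2 and chr1:51288876-51289125 for Cavin2, all on the plus strand. Capitals mark every match, on either strand, to the motifs listed after the sequences.
Cav1: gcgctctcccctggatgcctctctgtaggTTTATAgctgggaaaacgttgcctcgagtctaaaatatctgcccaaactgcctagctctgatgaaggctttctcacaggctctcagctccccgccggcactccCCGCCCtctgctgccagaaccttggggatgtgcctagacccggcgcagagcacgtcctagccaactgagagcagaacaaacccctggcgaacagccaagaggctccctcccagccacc
Cav2: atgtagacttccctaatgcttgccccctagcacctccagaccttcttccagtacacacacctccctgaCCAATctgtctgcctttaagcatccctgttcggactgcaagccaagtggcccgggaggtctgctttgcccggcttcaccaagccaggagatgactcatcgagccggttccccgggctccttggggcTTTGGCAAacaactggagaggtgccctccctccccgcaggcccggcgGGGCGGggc
Cavin2: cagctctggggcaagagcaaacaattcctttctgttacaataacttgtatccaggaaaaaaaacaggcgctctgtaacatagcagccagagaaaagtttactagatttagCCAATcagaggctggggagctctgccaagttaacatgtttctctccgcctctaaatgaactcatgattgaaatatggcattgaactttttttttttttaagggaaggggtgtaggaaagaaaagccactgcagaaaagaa

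The motifs searched were the GC box (GGGCGG), the CCAAT box (CCAAT), the TATA box (TATAAA), the E-box (CACGTG), the cAMP response element (TGACGTCA) and its core TGACG, which it contains, the nuclear receptor motif AGGTCA, a C/EBP motif (TTGCNNAA) and a TEAD motif (GGAATG). A RefSeq promoter was found for 7 of the 8 genes, all but Cavin3. Where RefSeq gave several starts, the most upstream was used. By the GENCODE coordinates above, the windows of Cavin1 and Pacsin3 nevertheless lie inside the gene, downstream of the GENCODE start. That of Ehd2 overlaps its gene in part. A GC box was present in 6 of these 7 windows and in 32.7% of all 32851 promoter windows of the same length. The CCAAT box was also present in 6 of 7, against 33.8% of all windows. The Cav1 window held a GC box 118 bases and a reversed TATA box 221 bases before the start, and 12.4% of all windows hold a TATA box. Cav2 had a GC box 9 bases and a CCAAT box 182 bases before the start. It also held the only match to the C/EBP motif, 56 bases before the start, whereas 9.56% of all windows hold it. The core TGACG was in 0 of the 7 windows (17.8% of all windows), the full cAMP response element in 0 (1.55%), the E-box in 0 (6.02%), and the AGGTCA motif was also in 0 (14.02%). The TEAD motif was in the windows of Cavin1 and Pacsin3 (12.6% of all windows). The Cavin2 window stood apart in base composition, with a GC content of 40.4% and 2 CpG. It held a CCAAT box 140 bases before the start and no GC box. The windows of the other 6 genes had a GC content of at least 58.0%, and the median of all windows was 52.4%. These matches are letters in a window and are not evidence of binding.

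Each value was taken to be the authors' estimate of reads for a gene divided by a size factor of the library, and is called the signal here. On that basis the libraries corresponded to 15445828 to 17925601 estimated reads. Correlations of log2(signal + 1) across the tested genes were 0.988 to 0.990 within Scr, 0.986 to 0.988 within MICT1 KO and 0.929 to 0.940 between the groups. The targeted gene, MICT1, was not analysed here and could not serve to check the KO labels. As a check of the cell type, 9 of 10 adipocyte markers were listed in the table, with a summed signal of 122571 to 145597 in Scr libraries. In MICT1 KO libraries that sum was 14450.5 to 20811.8, and 9 of the 9 tested markers were lower at a limma-trend adjusted p below 0.05. The largest falls were those of Cfd (log2 fold change -6.77), which encodes adipsin, and Adipoq (-6.66), the adiponectin gene. Fewer adipocytes in a culture and less RNA per adipocyte cannot be told apart in bulk libraries, and the part of either in the caveolae results was not tested.

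Most of the caveolae coat genes were lower in MICT1 KO cells. Of the 8, 7 were lower and 0 were higher at an adjusted p below 0.05 from limma-trend, adjusted by Benjamini-Hochberg over the 12507 genes tested. Among all tested genes 56.9% passed, 28.3% lower and 28.5% higher. The median log2 fold change of the 8 was -1.33, against -0.0053 for all tested genes. At least 2-fold lower were 6 of the 8, against 5.76% of all tested genes. In 7 of the 8 every MICT1 KO library lay below every Scr library, against 31.2% of all tested genes. By unadjusted p below 0.05 and by limma-voom the count of higher genes was also 0. The gene that did not fall was Pacsin3, and Pacsin2 fell by less than 2-fold. With so many genes changed in this comparison, a single call says little, and the size of each fall is given with it.

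**Figure D1:**
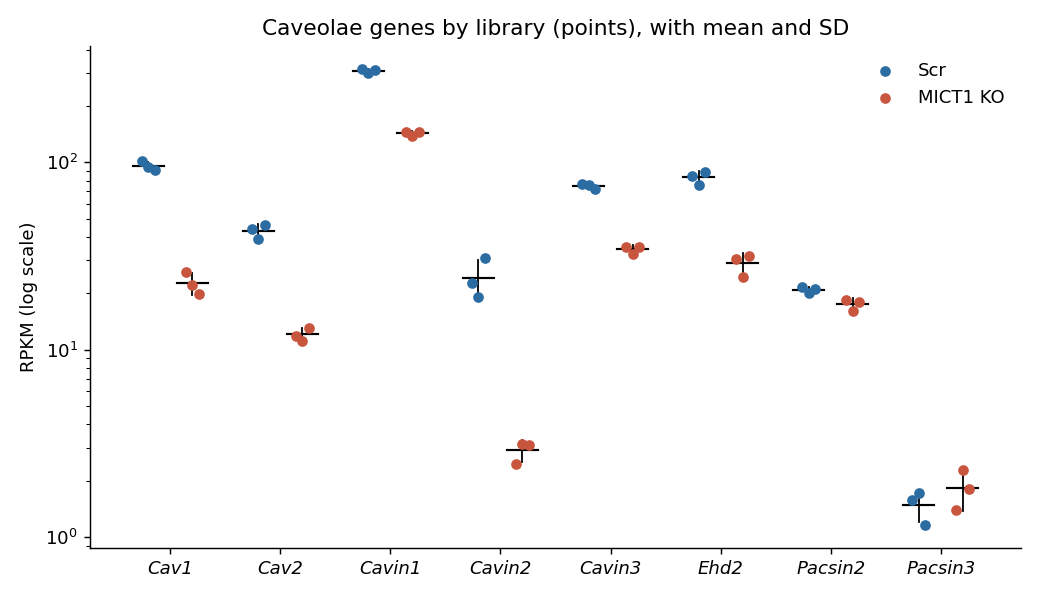
RPKM (reads scaled to exon length and library size, log axis) of the 8 caveolae genes in each of the 3 Scr and 3 MICT1 KO libraries; points are libraries, horizontal bars are means and vertical bars SD. The groups are separate for 7 genes, widest for Cavin2, and overlap for Pacsin3.

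Cav1 encodes the protein without which caveolae do not form in fat cells. Its signal was 5616, 5396 and 5145 in Scr, compared with 1468, 1239 and 1113 in the MICT1 KO group. The 3 MICT1 KO libraries lay close together and far below Scr, with a mean of 1273 ± 180 (SD, n = 3) against 5386 ± 236 (SD, n = 3). The log2 fold change of Cav1 was -2.09 (standard error, SE, 0.077, 95% interval -2.25 to -1.93, limma-trend adjusted p = 3.06e-15), a 4.25-fold fall. Cav2, whose product needs caveolin-1 to reach the cell surface, had a signal of 2369, 2161 and 2519 in Scr, compared with 653, 608 and 709 in the MICT1 KO group. The groups of Cav2 did not overlap either. Its log2 fold change was -1.84 (SE 0.076, 95% interval -1.996 to -1.68, limma-trend adjusted p = 1.99e-14), a 3.57-fold fall. Counted from the lowest log2 fold change among the 12507 tested genes, Cav1 stood at rank 200 and Cav2 at rank 259. Cav3, the muscle caveolin, was not among the genes listed in the deposited data and could not be tested.

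The cavins fell to different extents. Cavin1, the gene of the main structural cavin, had a signal of 18110.2, 17870.1 and 18365 in Scr, compared with 8546, 8115 and 8493 in the MICT1 KO group. The spread within each group of Cavin1 was small beside the gap between them. Its log2 fold change was -1.11 (SE 0.050, 95% interval -1.22 to -1.01, limma-trend adjusted p = 9.26e-14), a 2.16-fold fall. Cavin3 had values of 2064, 2094 and 1961 in Scr, compared with 961, 873 and 959 in the MICT1 KO group. Cavin3 thus fell by a similar factor, 2.19-fold, with a log2 fold change of -1.13 (SE 0.067, 95% interval -1.27 to -0.99, limma-trend adjusted p = 7.71e-12). Cavin2, whose product shapes caveolae in some tissues, had the largest fall of the 8 genes. Its signal was 1116, 971 and 1539 in Scr, compared with 124, 157 and 153 in the MICT1 KO group. Scr replicate 3 was higher than the other Scr libraries, and the highest MICT1 KO library was still far below the lowest Scr library. The log2 fold change of Cavin2 was -3.03 (SE 0.14, 95% interval -3.32 to -2.74, limma-trend adjusted p = 1.14e-13), an 8.19-fold fall and rank 97 from the lowest of all tested genes. The muscle cavin Cavin4 was low beside the other cavins, at 77.1, 61.2 and 82.4 in Scr, compared with 42.9, 68.5 and 59.1 in the MICT1 KO group. Its groups overlapped, and its log2 fold change of -0.38 did not pass the threshold (limma-trend adjusted p = 0.208).

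Ehd2, the gene of the ATPase at the caveolar neck, had a signal of 6977, 6447 and 7478 in Scr, compared with 2579.8, 2025 and 2639 in the MICT1 KO group. The groups were separate, with MICT1 KO replicate 2 the lowest. The log2 fold change was -1.54 (SE 0.080, 95% interval -1.70 to -1.37, limma-trend adjusted p = 8.16e-13), a 2.90-fold fall. Its paralogs act mainly in endosomal recycling and did not fall. Ehd1 was 3262, 3395 and 3481 in Scr, compared with 3948, 3452 and 3543 in the MICT1 KO group, with a log2 fold change of 0.11 (limma-trend adjusted p = 0.131). Only with upper-quartile scaling, among the settings tried, did Ehd1 pass the threshold (0.15, adjusted p = 0.0431). Ehd3 rose from 98.9, 69.5 and 58.0 to 231, 232 and 246, a log2 fold change of 1.67 (SE 0.19, limma-trend adjusted p = 2.53e-07). Ehd4 rose by 0.25 (limma-trend adjusted p = 0.0116), from a mean of 835 to 991, and no longer passed without control replicate 2 (0.18, adjusted p = 0.0863). Of the EHD family, Ehd2 was thus the member that fell.

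The pacsins changed little beside the other coat genes. Pacsin2, the broadly expressed F-BAR gene, was 1709, 1633 and 1688 in Scr, compared with 1491, 1291 and 1439 in the MICT1 KO group. The groups of Pacsin2 did not overlap, but the fall was small, with a log2 fold change of -0.26 (SE 0.068, 95% interval -0.40 to -0.11, limma-trend adjusted p = 0.00302) or 1.19-fold. Pacsin3, which is known mainly from muscle, was low in both groups, at 109.8, 123 and 82.4 in Scr, compared with 99.1, 161 and 126 in the MICT1 KO group. The groups of Pacsin3 overlapped, and its log2 fold change of 0.28 (SE 0.21, limma-trend adjusted p = 0.265) had an interval from -0.16 to 0.72. This interval covers both a small fall and a rise. The neuronal Pacsin1 did not pass the filter on signal and has no test. It was at 0.99, 3.71 and 3.05 in Scr, compared with 14.3, 6.32 and 15.5 in the MICT1 KO group.

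**Figure D2:**
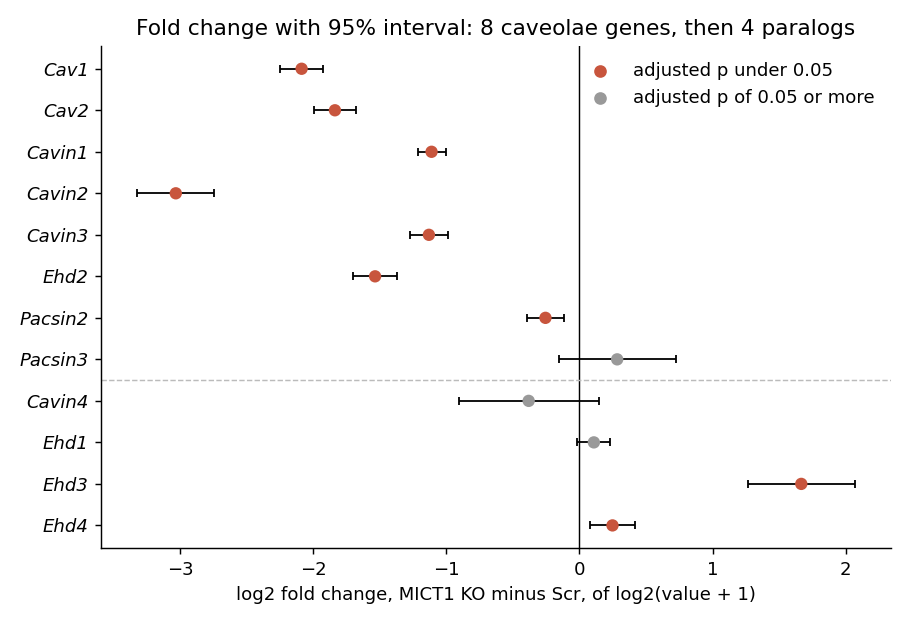
Log2 fold change (MICT1 KO minus Scr, on log2(signal + 1)) with its 95% interval for the 8 caveolae genes and, under the dashed line, 4 paralogs. Cavin2 is farthest from 0 at -3.03, Cavin1 and Cavin3 lie together near -1.1, and Ehd3 is on the opposite side at 1.67.

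Levels of different genes were compared per length, as RPKM with the merged length of all annotated exons of each gene. This length can exceed that of the transcripts expressed. The order of genes, the sums, the shares and the cavin to caveolin ratio below all depend on it. In Scr libraries Cavin1 was the highest at 309 ± 7.61 RPKM (SD, n = 3), followed by Cav1 at 95.6 ± 5.17, Ehd2 at 83.2 ± 6.79, Cavin3 at 74.98 ± 2.67 and Cav2 at 43.1 ± 3.66. Below these came Cavin2 at 24.2 ± 5.94, Pacsin2 at 20.9 ± 0.803 and Pacsin3 at 1.48 ± 0.287. The libraries of neighbours in this order overlapped for Ehd2 and Cavin3 and for Cavin2 and Pacsin2, and did not overlap for the other neighbours. Among the 12930 genes with a known exon length, Cavin1 stood at rank 94 from the highest mean RPKM in Scr and at rank 253 in MICT1 KO libraries.

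The order was different in MICT1 KO libraries. Cavin1 stayed the highest at 143 ± 3.68 RPKM (SD, n = 3), but Cavin3 (34.3 ± 1.77) and Ehd2 (28.9 ± 4.01) were now above Cav1 (22.6 ± 3.06), whereas Cav1 had been above both in every Scr library. The MICT1 KO libraries of Cavin3 and Cav1 did not overlap, while those of Ehd2 and Cav1 did. Pacsin2 (17.6 ± 1.23) was now above Cav2 (12.1 ± 0.951), and Cavin2 had reached 2.91 ± 0.380, which is rank 8480 of the 12930 genes after rank 2348 in Scr. Pacsin3 remained the lowest at 1.83 ± 0.448.

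Summed per length, the 2 caveolins had 145, 133 and 137 RPKM in Scr, compared with 37.9, 33.3 and 33.0 RPKM in the MICT1 KO group, or 25.04% of the Scr mean. The 3 cavins had 413, 395 and 415 RPKM in Scr, compared with 183, 174 and 184 RPKM in the MICT1 KO group, or 44.3% of the Scr mean. The ratio of cavin to caveolin RNA per length was 2.84, 2.96 and 3.03 in Scr, compared with 4.82, 5.24 and 5.59 in the MICT1 KO group. These ratios did not overlap, so the RNA that was left held relatively more cavin than caveolin when each class was summed. Cavin1 made up most of the cavin sum, 75.7% in Scr and 79.4% in MICT1 KO libraries on average. Cavin2 did not follow the sum, since it fell more than either caveolin. The sum over the 8 genes was 652 ± 22.8 RPKM (SD, n = 3) in Scr and 263 ± 11.3 RPKM (SD, n = 3) in MICT1 KO libraries.

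Within that sum, the share of Cav1 was 14.7% ± 0.809 (SD, n = 3) in Scr and 8.60% ± 1.10 in MICT1 KO libraries. The share of Cavin1 went the other way, from 47.3% ± 0.502 to 54.4% ± 1.01. The share of Cavin2 was 3.70% ± 0.826 and then 1.11% ± 0.179, whereas that of Pacsin2 was 3.20% ± 0.0409 and then 6.66% ± 0.190. Shares within a sum are tied to each other, so a gene that falls less than the rest gains share without rising. No test was made of these sums and shares.

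**Figure D3:**
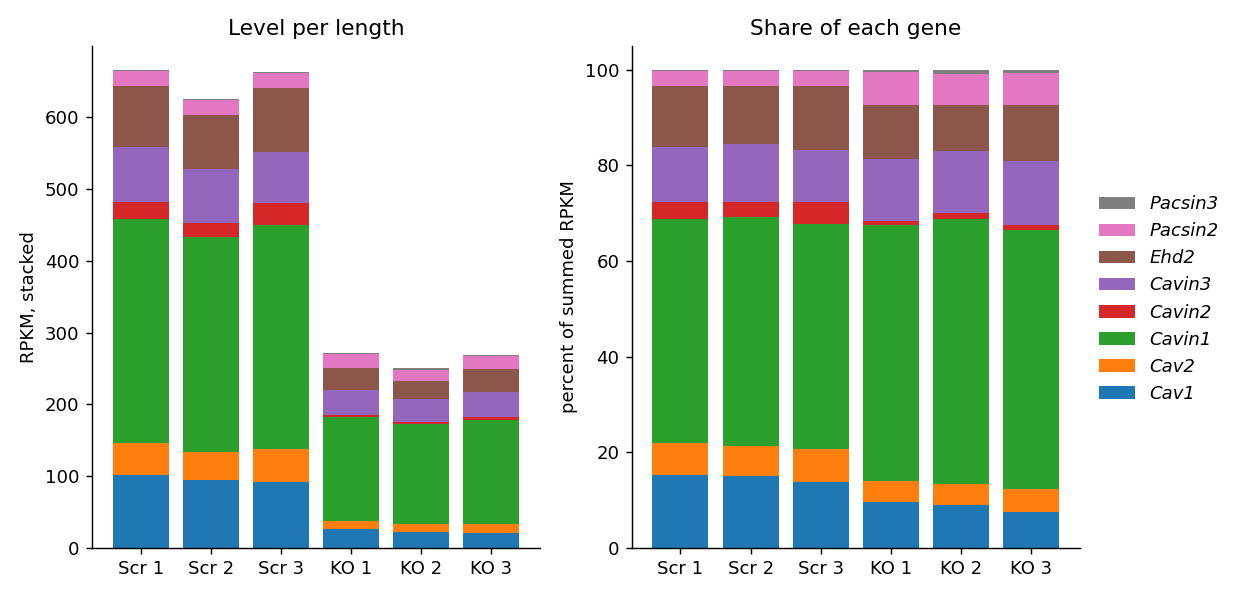
Left, RPKM of the 8 caveolae genes stacked for each library; right, the share of each gene in that sum in percent. The stacks reach 626 to 666 RPKM in Scr and 251 to 271 RPKM in MICT1 KO libraries, and Cavin1 takes the largest share in all 6 libraries.

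Whether any pair of the genes changed unequally was examined with log2 ratios within each library, for 6 pairs. A two-sided exact permutation test over 3 and 3 libraries cannot give p below 0.1, so no pair could pass 0.05. Cav1/Cavin1 was -1.69, -1.73 and -1.84 in Scr, compared with -2.54, -2.71 and -2.93 in the MICT1 KO group, a difference of -0.98 (SE 0.12, exact permutation p = 0.1, adjusted p = 0.2 over the 6 pairs). Cavin2/Cavin1 differed by -1.92 (SE 0.22, exact permutation p = 0.1, adjusted p = 0.2), and Ehd2/Cav1 by 0.55 (SE 0.19, exact permutation p = 0.1, adjusted p = 0.2). In these 3 pairs the libraries of the groups did not overlap, which gives the smallest p that the test can reach and does not pass 0.05. The ratios come from the same signals as the fold changes above and are not separate support for them. How often other pairs of genes separate in this way was not examined.

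In the other 3 pairs the groups overlapped. The ratio Cav1/Cav2 was 1.25, 1.32 and 1.03 in Scr, compared with 1.17, 1.03 and 0.65 in the MICT1 KO group, a difference of -0.25 (SE 0.18, exact permutation p = 0.2, adjusted p = 0.24). The ratio Cavin3/Cavin1 lay between -3.23 and -3.09 in all 6 libraries, and its difference was -0.02 (SE 0.045, exact permutation p = 0.6, adjusted p = 0.6). Its sign turned without control replicate 2 (0.0092) and without KO replicate 2 (0.0021). Pacsin3/Pacsin2 differed by 0.54 (SE 0.32, exact permutation p = 0.2, adjusted p = 0.24).

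**Figure D4:**
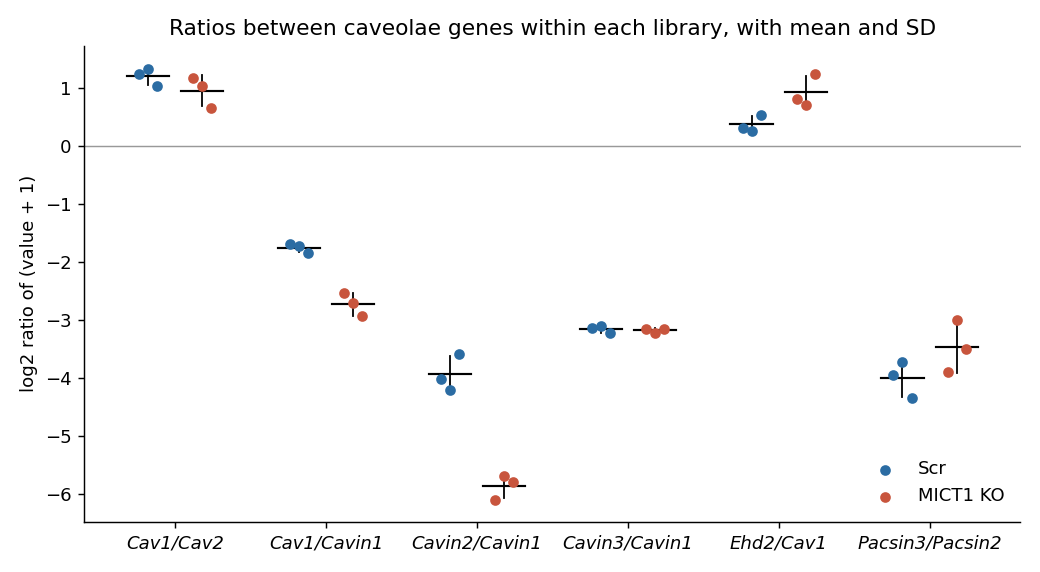
Log2 ratio of (signal + 1) between pairs of caveolae genes within each of the 6 libraries; points are libraries, horizontal bars are means and vertical bars SD. Cav1/Cavin1, Cavin2/Cavin1 and Ehd2/Cav1 are separate between Scr and MICT1 KO, and Cavin3/Cavin1 stays near -3.2 in both.

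Since Cav1 and Cav2 are adjacent, the genes around them on chromosome 6 were also read, a choice made after their values were seen. Within 500 kb of the pair 6 genes were tested, the pair included. Tes, the nearest tested gene upstream, encodes the focal adhesion protein testin. Its signal was 731, 691 and 624 in Scr, compared with 2005, 1918 and 1639.8 in the MICT1 KO group, a rise with a log2 fold change of 1.44 (SE 0.083, limma-trend adjusted p = 4.42e-12). Met, the receptor tyrosine kinase gene on the downstream side, fell from 410.5, 478 and 464 to 253, 255 and 256, with a log2 fold change of -0.82 (SE 0.11, limma-trend adjusted p = 2.23e-06). Capza2, which encodes an actin capping subunit, fell by 0.19 on the log2 scale (limma-trend adjusted p = 0.00486). St7 did not pass (0.18, limma-trend adjusted p = 0.242) except without control replicate 3 (0.31, adjusted p = 0.0487). The fall of the pair was thus not shared in size by its neighbours, and Tes moved in the opposite direction.

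The genes whose profile over the 6 libraries was most like that of Cav1 were sought among 9123 genes with a mean of at least 10 CPM. Likeness was the Euclidean distance between log2(signal + 1) profiles centred on each gene's mean. A small distance by this measure requires a similar fold change, so the fold changes of the nearest genes are not a separate result. Nearest to Cav1 were Rgcc (distance 0.229), Gdf10 (0.235) and Apln (0.270), with log2 fold changes of -2.16, -1.94 and -2.11. Of the coat genes Cav2 was the nearest to Cav1, at 0.531, and 29 candidates were nearer. Nearest to Cavin1 were Idh3a (distance 0.0755), Plxnd1 (0.0836) and Me1 (0.110), with log2 fold changes of -1.08, -1.06 and -1.07. Cavin3 was at a distance of 0.114 from Cavin1, and only 4 of the 9123 candidates were nearer to it.

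Other genes of caveola formation, of the flotillin and related families and of the clathrin coat were read from lists. Of 13 tested genes that include paralogs, kinases and turnover factors of the caveola coat, 1 was lower and 7 were higher at a limma-trend adjusted p below 0.05, against 28.3% and 28.5% of all tested genes. The count of higher genes ranged from 5 to 9 over the settings tried, and the median log2 fold change was 0.18. The fall was that of Prkca (-0.35), the gene of protein kinase C alpha. Besides Ehd3, the largest rise was that of Fyn (1.11), a Src family kinase that phosphorylates caveolin-1. Flotillins form other membrane microdomains. Their list also held Stom, Stoml2, Erlin1, Erlin2, Phb and Phb2, and is not a list of endocytic coat genes. Of its 8 genes tested 4 were lower and 0 higher by limma-trend, beside the same shares of all tested genes. The median was -0.13, with the largest falls in Flot1 (-0.74) and Stom (-0.41). The other falls were those of Phb2 (-0.28) and Phb (-0.24). Flot2 did not pass (0.13, limma-trend adjusted p = 0.174). By unadjusted p below 0.05 and by limma-voom the count of higher genes was also 0, but 1 gene was higher with upper-quartile scaling and without control replicate 1, control replicate 3 or KO replicate 1.

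Of 24 tested clathrin coat genes 7 were lower and 10 higher by limma-trend, against 28.3% and 28.5% of all tested genes. The lower count was near that background, and the median log2 fold change was 0.11. Picalm (-0.83), a clathrin assembly gene, and Itsn1 (-0.83), which encodes a scaffold of coated pits, fell most. Hip1r (1.52) and Hip1 (0.74), which link clathrin to actin, rose most. At least 2-fold lower were 0 of the 24, where 5.76% of all tested genes were.

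Of 17 tested genes of receptors, transporters, enzymes and other proteins reported in caveolae 12 were lower and 4 higher by limma-trend. Of all tested genes 28.3% were lower and 28.5% higher. The median of the 17 was -0.78. The largest falls were those of Plin1 (-5.93), the gene of the lipid droplet protein perilipin-1, and Aoc3 (-5.11), which encodes an amine oxidase abundant on fat cells. At least 2-fold lower were 6 of the 17, against 5.76% of all tested genes. Besides Plin1 and Aoc3 these were Slc2a4 (-4.37), Cd36 (-4.22), Lipe (-3.70) and Abca1 (-3.13). Plin1 is also on the list of adipocyte markers. Any tie between the falls in this list and those of the adipocyte markers was not tested. Plaur (0.79), the urokinase receptor gene, and Igf1r (0.50) rose most. Of 15 genes of cholesterol and sphingolipid supply 8 fell and 3 rose by limma-trend, beside the same shares of all tested genes and around a median of -0.20. Hmgcs1 (-1.76) and Sqle (-1.33), of cholesterol synthesis, fell most. Sgms1 (0.48), a sphingomyelin synthase gene, and Npc1 (0.29), which exports cholesterol from lysosomes, rose most. Npc1 no longer passed without control replicate 3 (0.20, adjusted p = 0.0779) or without KO replicate 1 (0.22, adjusted p = 0.0633).

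**Figure D5:**
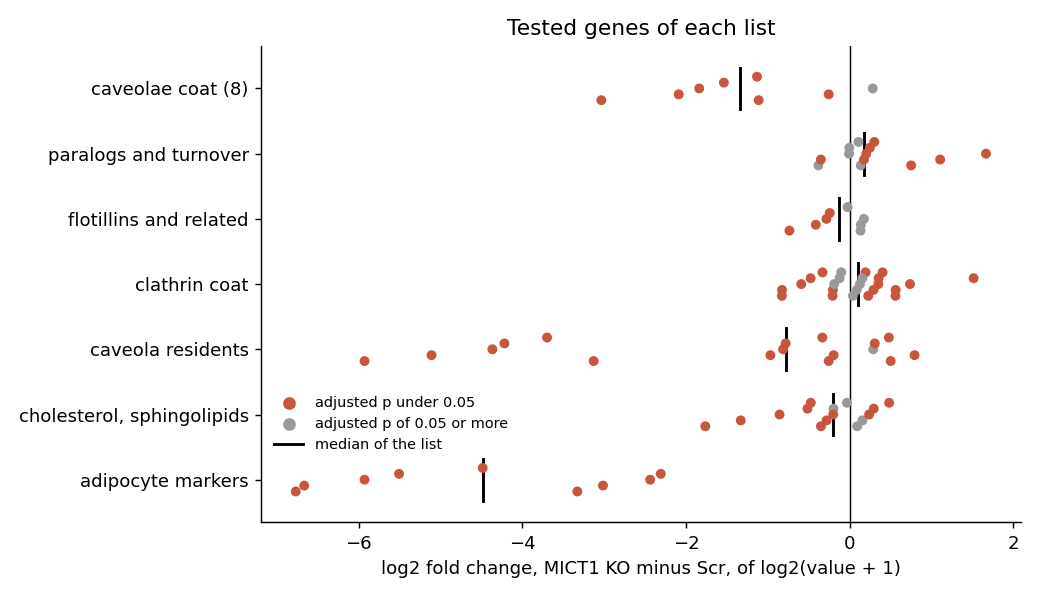
Log2 fold change (MICT1 KO minus Scr) of every tested gene of 7 lists; each point is a gene, coloured by its adjusted p, and black bars are list medians. The medians are -1.33 for the caveolae coat, 0.11 for the clathrin coat and -4.48 for the adipocyte markers.

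Endothelial and muscle cells also carry many caveolae, so their markers were read beside the coat genes. Of 8 endothelial markers 1 was listed, Cdh5, at a signal of 5.93 to 12.05 in Scr and 25.9 to 33.4 in MICT1 KO libraries, higher at a limma-trend adjusted p of 0.00275. Of 8 smooth muscle markers 7 were listed, with a summed signal of 1916 to 2246 in Scr and 2818 to 3015 in MICT1 KO libraries. Mylk (-1.56) and Acta2 (-1.33) were lower and Smtn (0.72) was higher. Without Smtn the other 6 markers summed to 544 to 553 in Scr and 401 to 439 in MICT1 KO libraries, a lower sum. Of 8 skeletal muscle markers 2 were listed, with a summed signal of at most 42.5 in any library, and Ttn was lower (-1.86) but did not pass without control replicate 1 (-1.76, adjusted p = 0.0864) or control replicate 2 (-1.81, adjusted p = 0.0724). Of 8 macrophage markers 3 were listed, with a summed signal of 247 to 363 in Scr and 488 to 622 in MICT1 KO libraries, and Cd14 rose (1.24). Without Cd14 the other 2 summed to 81.4 to 133 in Scr and 101 to 142 in MICT1 KO libraries, and the groups overlapped. Of 8 progenitor markers 6 were listed and 4 tested, with sums of 4365 to 5016 in Scr and 4715 to 4915 in MICT1 KO libraries. Ly6a (1.39) and Pdgfrb (0.48) rose, Dlk1 (-3.47) fell, and Pdgfra (-0.19, limma-trend adjusted p = 0.0347) lost its call in 6 of 14 settings. The higher sums of smooth muscle and macrophage markers thus rested on Smtn and Cd14, and the endothelial value on Cdh5 alone. All libraries came from a single cell line, and no endothelial, muscle or macrophage cells were described in the cultures. These markers are thus read as expression in that line, not as amounts of other cell types. Any tie between them and the caveolae results was not tested, and the sums without Smtn and Cd14 were added after seeing the data.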

How the data were processed

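Per the labels and methods, reads from 3 Scr and 3 MICT1 KO libraries were aligned with Partek software to mm10. The submitters' processing notes name Partek, STAR and DESeq2. The counting model and annotation are not given in the sources used here. The authors deposited a normalized signal per gene, not whole counts. From 88.7% to 90.2% of values under 20 were whole multiples (tolerance 0.01) of a step per library, so the signal was taken to be estimated reads over a size factor of the library, and no count test was run. The table holds genes with signal above 0 in all 6 libraries.

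Signals were compared as log2(signal + 1) with limma-trend (limma 3.58.1, R 4.3.3) in the 12507 genes with a signal of at least 10 in at least 3 libraries, with Benjamini-Hochberg adjustment and a threshold of 0.05. Such fold changes understate those of low genes. RPKM used the sum of each library and merged GENCODE M21 exon lengths, found for 12930 genes (97.3%). Ratios were tested by exact permutation (scipy 1.17.1). The 8 genes, the lists and the tests were chosen with earlier results of these data known. Named besides the 8 genes and their paralogs were the 2 largest called rises and falls of each list, and the 3 genes most like Cav1 and Cavin1. The methods describe replicates as biological, but the labels do not say whether the libraries came from separate cultures. The limma-trend p-values thus set the difference between the groups against the spread between these libraries within the groups, whatever its source. Alternatives were library-size and upper-quartile scaling, limma-voom, other filters and pseudocounts, a replicate block and leaving out each library. For RPKM the deposited scaling was an alternative added after seeing the data.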

Additional observations from a re-analysis of the deposited data

How the results depend on the processing

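In all 14 alternative settings 7 of the 8 caveolae genes were lower and 0 higher, and no call among them changed. With each library left out, the log2 fold change was -2.20 to -1.996 for Cav1, -1.90 to -1.78 for Cav2, -1.13 to -1.09 for Cavin1, -3.18 to -2.85 for Cavin2, -1.16 to -1.09 for Cavin3, -1.61 to -1.41 for Ehd2, -0.30 to -0.19 for Pacsin2 and 0.11 to 0.46 for Pacsin3. The difference in Cavin3/Cavin1 changed sign without control replicate 2 (0.0092) and without KO replicate 2 (0.0021), over a range of -0.0579 to 0.0092, and the cause was not tested. Of the flotillin list 1 gene was higher with upper-quartile scaling, against 0 in the main analysis, and the count ranged from 0 to 1 with each library left out. The scalings moved the median of all tested genes by less than 0.1. Same-numbered deviations from the group means correlated at -0.0236, -0.0155 and 0.0637, and differently numbered ones at -0.0431 to 0.0561. These values gave no clear sign that replicate numbers pair the libraries. With 3 libraries per group they cannot exclude a pairing. With the replicate block 3512 genes were lower and 3543 higher, against 3544 and 3569 without it, and not every library correlated best with its own number. The lowest coat signal, Pacsin3, rested on 81.0 to 153 estimated reads, which limits what could be detected for it. With 3 libraries per group of a single line, the error does not cover other lines or pools.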
